A study of Mus musculus with 6 samples.

Results

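The mitochondrial genome carries 37 genes, and all 37 have a row in the deposited table of 52183 genes, found by a symbol that starts with mt-. Of these, 13 are messenger RNA genes, 2 are ribosomal RNA genes and 22 are transfer RNA genes, and every one lies on chromosome M of the mouse build GRCm38. RNA sequencing measured them in haematopoietic stem cells that were sorted by flow cytometry from the bone marrow of female mice aged 4 months. There were 3 libraries labelled Thbs1 knockout and 3 labelled control. The study set out to find transcripts that change with deletion of Thbs1, the gene of the secreted glycoprotein thrombospondin 1. The labels name no strain, no design of the knockout allele and no other allele or treatment, and do not say whether a library came from a single mouse or from several, so a p-value here weighs a difference against the spread of these libraries alone, which may be technical.

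Mitochondria transcribe their small circular genome from both strands as long precursor RNAs. The transfer RNAs lie between the other genes, and cutting them out frees the messengers and the ribosomal RNAs. The 13 messengers encode core subunits of respiratory complexes I, III, IV and V, the proton pumps and the ATP synthase of the inner membrane, and the ribosomal and transfer RNAs serve the ribosome that translates them. All other subunits come from nuclear genes, and complex II is wholly nuclear. Pieces of mitochondrial DNA have also been copied into the nuclear chromosomes, where they remain as pseudogenes. Haematopoietic stem cells in the bone marrow are known for relying largely on glycolysis while holding their mitochondria at low activity.

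Values are FPKM, which count mapped fragments per kilobase of exon and per 1000000 fragments of the library. The library kit primes cDNA from poly(A), so FPKM need not reflect amounts alike across messenger, ribosomal and transfer RNAs. The steps between FPKM values of short genes correspond to depths of 25740000 to 30890000 reads in the libraries labelled knockout and 22730000 to 25920000 reads in control libraries. A gene of 70 bases, the size of a transfer RNA, needs between 1.39 and 1.89 FPKM to hold 3 reads in a library. Thbs1 itself lay between 7.68 and 10.8 FPKM in libraries labelled knockout and between 2.33 and 13.8 FPKM in control libraries. It was thus not lower in them (log2 change 0.65 ± 0.43 SE; by limma the adjusted p was 0.503, and a two-sided exact permutation test, whose smallest p is 0.1, gave p = 0.5). Without control library 2 it was higher (log2 change 1.26, limma adjusted p = 0.0343). Leaving out any other library brought no call, and the log2 change was smallest without control library 3 (0.187, limma adjusted p = 0.851). The FPKM of Thbs1 did not show the loss that the knockout label names, and the design of the allele is not given. All directions below are therefore those of the labels. All 10 stem cell markers entered the test, with summed levels of 674 to 765 FPKM in libraries labelled knockout and 692 to 774 FPKM in control libraries. Their fitted changes split into 5 above and 5 below 0. Of the 10, 5 had p below 0.05 in limma before adjustment, beside 16.4% of all tested genes. The test called 1 of them, beside 1.56% of all tested genes. This was Ly6a, the Sca-1 surface antigen gene, which fell to 76.9 ± 11.1 FPKM in libraries labelled knockout, against 114.8 ± 6.78 FPKM in control libraries (SD, n = 3 each; limma adjusted p = 0.0286). Procr, with the next smallest p, stood the other way, at 59.3 ± 7.04 FPKM in knockout-labelled and 45.4 ± 1.93 FPKM in control libraries (limma adjusted p = 0.0857).

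The readability of these genes differed sharply along the mitochondrial genome. A stretch from base 6390 to base 11042, from the last part of mt-Co1 to the first part of mt-Nd4, has a nuclear copy on chromosome 1 (24611535 to 24616197, minus strand), annotated as 7 pseudogene rows. Of its 4653 mitochondrial bases 4140 aligned to these rows, with 2 differences. The bases between the rows, which include the 5 transfer RNA genes of the stretch and part of mt-Atp8, were not compared here, so those genes are counted inside the stretch by position alone. The Nd3 region differs at a base close to the start of the gene, T3C, counted from 1 at the first base of mt-Nd3 with the mitochondrial base first. It lies at base 9461 of chromosome M. The other difference, A1066T of mt-Co1 against its copy Gm29216, lies at base 6393. Both are shown because, within the aligned bases, reads that do not cross them match chromosome M and chromosome 1 equally well. The sequences are GENCODE M21 transcripts in GRCm38, 5′ to 3′, with the differing base in capitals. They cover chrM:9459-9518 (plus strand), chr1:24613060-24613119 (minus strand), chrM:6390-6449 (plus strand) and chr1:24616129-24616188 (minus strand).
mt-Nd3: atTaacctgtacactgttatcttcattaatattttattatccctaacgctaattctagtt
Gm28438: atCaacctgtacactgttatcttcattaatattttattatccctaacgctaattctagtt
mt-Co1: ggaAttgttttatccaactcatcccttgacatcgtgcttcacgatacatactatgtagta
Gm29216: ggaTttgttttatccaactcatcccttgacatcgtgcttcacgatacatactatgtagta

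Inside the copied stretch lie 11 mitochondrial genes, 6 messengers and 5 transfer RNAs, and their mean levels over the 6 libraries did not pass 4.79 FPKM. The messengers there are mt-Co2, mt-Atp8, mt-Atp6, mt-Co3, mt-Nd3 and mt-Nd4l, and the transfer RNAs mt-Ts1, mt-Td, mt-Tk, mt-Tg and mt-Tr had no read in any library. The 5 messengers wholly outside it averaged between 61.2 and 919 FPKM. mt-Co1 and mt-Nd4 lie partly inside, with 1062 and 502 bases outside the copy. Division by those bases takes every counted read to lie outside the copy, so it gives an upper value. Divided by those bases alone, mt-Co1 came to 2568 ± 79.3 FPKM in libraries labelled knockout and 2365 ± 148 FPKM in control libraries (SD, n = 3 each), and mt-Nd4 to 367.5 ± 77.3 FPKM in knockout-labelled and 403 ± 69.9 FPKM in control libraries. How reads that match several places were counted is not given in the sources used here, so the levels of these 13 genes are uncertain, and the low values of the genes inside the stretch do not show that they were little expressed.

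**Figure D1:**
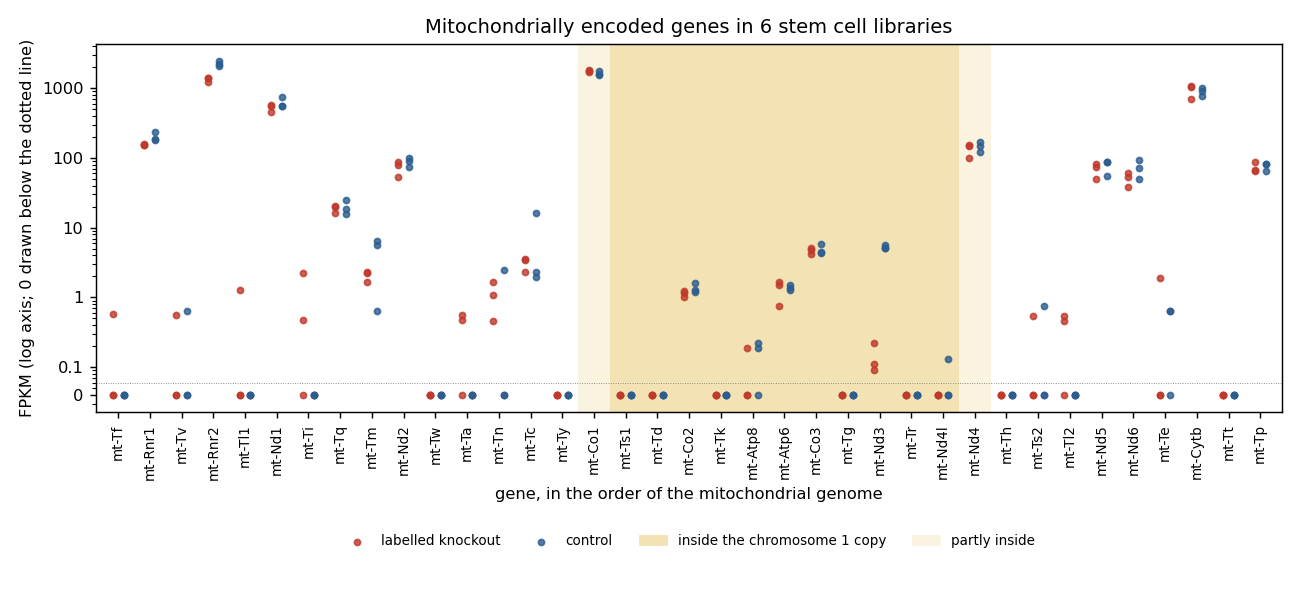
FPKM on a log axis of the 37 mitochondrially encoded genes, in the order of the genome, with 1 point per library and zeros below the dotted line. The 11 genes inside the shaded stretch copied on chromosome 1 average at most 4.79 FPKM, whereas mt-Co1 next to it averages 1696 FPKM.

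Of the 37 genes, 18 reached 1 FPKM or more in 3 or more libraries and entered the test over all 12555 such genes, with limma on log2(FPKM + 1). They were 11 messengers, both ribosomal RNAs and 5 transfer RNAs. At an adjusted p below 0.05, 2 members fell, mt-Rnr2 and mt-Nd3, 0 rose and 16 were not called. Of these calls, mt-Nd3 passed the filter only through its control libraries and turned the other way when the reads of its chromosome 1 copy were counted with it, as described below. Over all tested genes 1.56% were called, 0.566% higher and 0.996% lower. Of the 18 members, 15 were fitted below 0, and the median log2 change was -0.16 beside 0.01 for all tested genes. Before adjustment, 3 members and 16.4% of all tested genes had p below 0.05. The 3 libraries labelled knockout all lay below the 3 control libraries in 3 members, mt-Rnr2, mt-Rnr1 and mt-Nd3, as in 10.1% of tested genes, and all lay above them in 0 members, against 12.6% of tested genes. Rescaled so that each library sums to 1000000 (TPM), log2 changes shifted upwards by a median of 0.20, and 9 of the 18 members were then below 0. The sums before rescaling were 329400 to 339700 FPKM in libraries labelled knockout and 373900 to 408700 FPKM in control libraries.

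**Figure D2:**
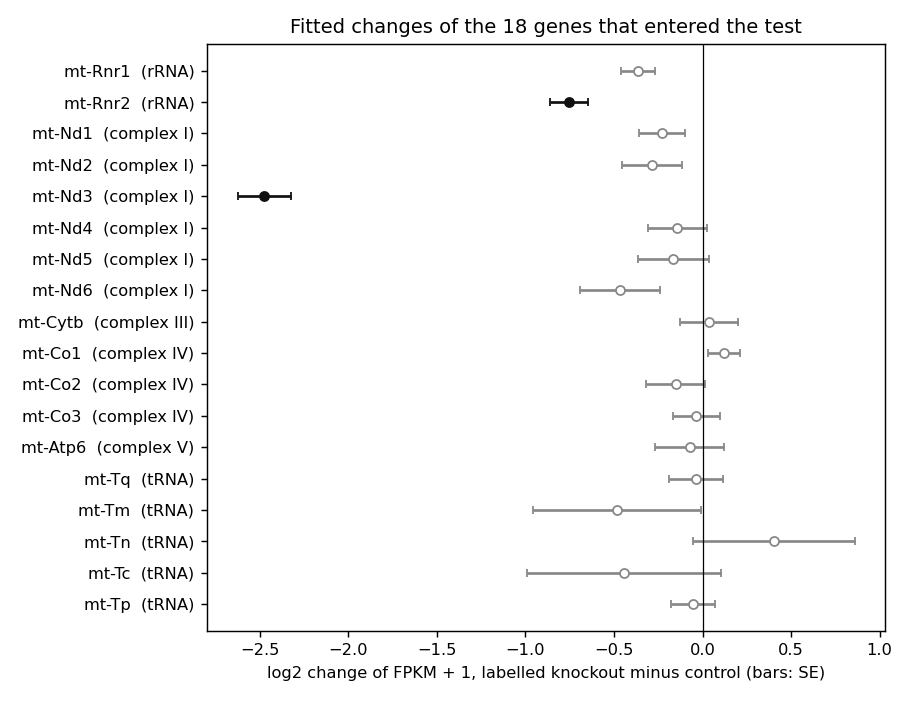
Log2 change of FPKM + 1, labelled knockout minus control, with limma's SE as bars, for the 18 members that entered the test. Filled points passed an adjusted p of 0.05. mt-Nd3 and mt-Rnr2 stand at -2.47 and -0.75, and open points lie between -0.48 and 0.40.

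The ribosomal RNAs were lower in the libraries labelled knockout, and the large one passed the test. mt-Rnr2 (ENSMUSG00000064339, chromosome M, 1094 to 2675), the RNA of the large mitochondrial ribosomal subunit, was read at 1207, 1399 and 1410 FPKM in libraries 1 to 3 labelled knockout, against 2225, 2068 and 2475 FPKM in control libraries 1 to 3. The groups did not overlap. It fell to 1338 ± 114 FPKM, against 2256 ± 205 FPKM in control libraries (SD, n = 3 each; log2 change -0.75 ± 0.11 SE, adjusted p = 0.0111 in limma). Each value rested on 57401 to 91226 reads. The call was lost without the library labelled knockout 1 (adjusted p = 0.0519), without the library labelled knockout 2 (adjusted p = 0.0669) and with no filter on low genes (adjusted p = 0.25), at log2 changes of -0.68, -0.79 and -0.75, and stood at the threshold without the library labelled knockout 3 (adjusted p = 0.05).

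mt-Rnr1 (ENSMUSG00000064337, chromosome M, 70 to 1024), the RNA of the small ribosomal subunit, was read at 153.7, 161 and 153 FPKM in libraries labelled knockout, against 182, 188 and 235 FPKM in control libraries. These groups did not overlap either, and control library 3 stood highest. The log2 change was -0.36 ± 0.10 SE (limma adjusted p = 0.112). The ratio of mt-Rnr2 to mt-Rnr1 was 7.85, 8.70 and 9.23 in the libraries labelled knockout, against 12.2, 11.01 and 10.5 in control libraries. Both RNAs are processed from the same precursor, and the ratio was lower in each of the 3 libraries labelled knockout than in any control library.

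The library kit primes cDNA from runs of A, so the longest such run of each ribosomal RNA is shown in capitals within its neighbouring bases. They cover chrM:1463-1519 and chrM:680-734 on the plus strand. The run counts 7 bases in mt-Rnr2 and 5 in mt-Rnr1. Over the 37 genes the longest run lay between 2 and 8 bases, with 8 in mt-Nd2 and mt-Tr. It was 7 in mt-Co1 and 5 in mt-Cytb, and its part in the levels was not tested.
mt-Rnr2: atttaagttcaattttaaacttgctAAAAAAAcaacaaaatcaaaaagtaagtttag
mt-Rnr1: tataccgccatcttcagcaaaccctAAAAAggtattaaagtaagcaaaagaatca

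The row of Lars2, the nuclear gene of the mitochondrial leucyl-tRNA synthetase, fell to 194 ± 10.6 FPKM in libraries labelled knockout, against 1024 ± 125 FPKM in control libraries (log2 change -2.39 ± 0.10 SE, adjusted p = 3.65e-06 in limma). The microRNA feature Mir6236 stood at 469 ± 54.5 FPKM in knockout-labelled and 1949 ± 198 FPKM in control libraries (adjusted p = 2.55e-05), and the small RNA feature Gm23935 at 14230 ± 663 FPKM in knockout-labelled and 64180 ± 10100 FPKM in control libraries (adjusted p = 0.000921). Mir6236 and Gm23935 were chosen after their values were seen. Gene-level values do not show where in a row its reads lay, so the Lars2 value does not by itself show a change of its messenger. Of the 18 tested members 15 were fitted below 0. The messengers mt-Co1, with 57162 to 81534 reads a library, and mt-Cytb, with 20670 to 31308, had log2 changes of 0.12 and 0.04. Neither Lars2 nor Mir6236 nor Gm23935 aligned to a mitochondrial gene with BLAST at an E-value of 1e-05. Their part in the level of mt-Rnr2 was not tested.

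By class, the summed ribosomal RNAs separated the groups and the summed messengers did not. The summed FPKM of the 13 messengers were 3109, 3781 and 3792 in the libraries labelled knockout, against 3428, 3247 and 3955 in control libraries. These values overlap, with means of 3561 ± 391 FPKM in knockout-labelled and 3543 ± 368 FPKM in control libraries. Of these means mt-Co1 made up 1765 and 1626 FPKM, and 6 of the 13 messengers lie inside the copied stretch, where levels are uncertain. The summed FPKM of both ribosomal RNAs were 1360, 1560.0 and 1562 in the libraries labelled knockout, against 2407, 2256 and 2710 in control libraries, without overlap. This sum is mostly mt-Rnr2, with 1338 of a mean of 1494 FPKM in knockout-labelled and 2256 of 2458 FPKM in control libraries, and mt-Rnr1 alone was not called. All 37 genes together took 0.625%, 0.736% and 0.736% of reads in the libraries labelled knockout, against 0.817%, 0.773% and 0.925% in control libraries. In bulk samples fewer cells of a type and less RNA per cell cannot be told apart, and these sums carry no test.

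**Figure D3:**
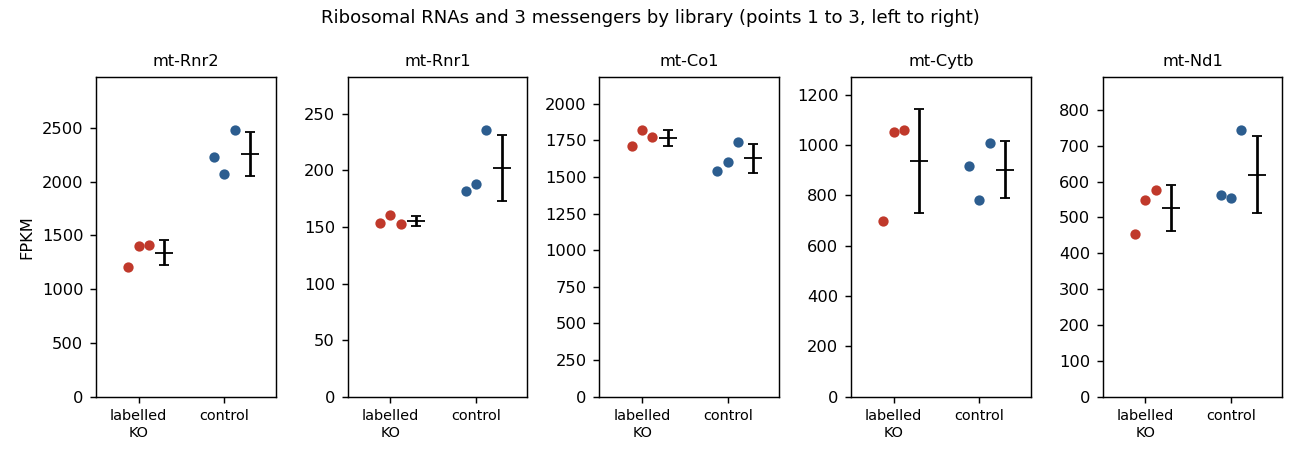
FPKM by library of mt-Rnr2, mt-Rnr1, mt-Co1, mt-Cytb and mt-Nd1, each on its own axis from 0, with the mean and SD beside the 3 points of each group. mt-Rnr2 and mt-Rnr1 separate the groups, and the 3 messengers overlap between them.

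Per full length, the order of the highest members differed between the groups. In the libraries labelled knockout mt-Co1 stood first at 1765 ± 54.5 FPKM and mt-Rnr2 second at 1338 ± 114 FPKM, without overlap. In control libraries mt-Rnr2 stood first at 2256 ± 205 FPKM and mt-Co1 second at 1626 ± 102 FPKM, again without overlap. The ratio of mt-Rnr2 to mt-Co1 was 0.706, 0.770 and 0.796 in the libraries labelled knockout, against 1.45, 1.29 and 1.42 in control libraries, a ratio chosen after its values were seen. Then came mt-Cytb, mt-Nd1, mt-Rnr1 and mt-Nd4 in both groups. These orders hold for division by full length and compare FPKM across RNA classes, not amounts of RNA. Divided by its bases outside the copy, which gives an upper value, mt-Co1 stood above mt-Rnr2 in both groups. In control libraries 1 to 3 it came to 2239, 2329 and 2528 FPKM, against 2225, 2068 and 2475 FPKM for mt-Rnr2, so this order is not settled there. By the same division mt-Nd4 stood above mt-Rnr1. Below these, mt-Nd2, mt-Tp, mt-Nd5 and mt-Nd6 averaged 80.7, 74.3, 72.4 and 61.2 FPKM over the 6 libraries, and neighbours in this order overlapped between libraries.

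Complex I, the NADH dehydrogenase that feeds electrons into the chain, has 7 mitochondrial subunit genes. Of the 6 that entered the test, mt-Nd3 was called lower and 5 were not called. mt-Nd3 entered only through its control libraries, and its sign turned when its copy was counted with it. All 6 had fitted changes below 0, as had 15 of the 18 tested members, whereas 53.4% of all tested genes were fitted above 0. mt-Nd1, a membrane subunit next to the quinone site, was read at 454, 549 and 575.5 FPKM in libraries labelled knockout, against 562, 553 and 742.5 FPKM in control libraries. The groups overlapped (log2 change -0.23 ± 0.13 SE, adjusted p = 0.428 in limma).

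The proton-pumping subunit genes mt-Nd2, mt-Nd4 and mt-Nd5 followed the same spread. mt-Nd2 was read at 53.4, 79.1 and 86.9 FPKM in libraries labelled knockout, against 91.2, 73.5 and 99.8 FPKM in control libraries (log2 change -0.28 ± 0.17 SE, adjusted p = 0.452 by limma). mt-Nd4 was read at 101, 149 and 151 FPKM in libraries labelled knockout, against 151, 120 and 170 FPKM in control libraries, and mt-Nd5 at 50.01, 73.4 and 81.2 FPKM in libraries labelled knockout, against 86.1, 56.0 and 87.6 FPKM in control libraries. Their log2 changes of -0.14 and -0.17 did not pass the test (limma adjusted p = 0.727 and 0.741) and turned above 0 under TPM and without the library labelled knockout 1. In each of these genes that library was the lowest of its group and control library 2 the lowest of the controls.

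mt-Nd6, the messenger gene annotated on the opposite strand to all the other messengers, was read at 38.0, 53.4 and 61.2 FPKM in libraries labelled knockout, against 71.0, 49.4 and 94.5 FPKM in control libraries (log2 change -0.46 ± 0.23 SE, adjusted p = 0.349 in limma). The kit does not mark strand, so reads of mt-Nd6 and of precursor RNA from the other strand cannot be told apart. mt-Nd4l, inside the copied stretch and overlapping mt-Nd4, had 1 read over all 6 libraries.

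mt-Nd3 (ENSMUSG00000064360, chromosome M, 9459 to 9806), a small complex I subunit gene at the hinge of its membrane arm, gave the member value that differed most between the groups, and its chromosome 1 copy differed the opposite way. mt-Nd3 was read at 0.09, 0.11 and 0.22 FPKM in libraries labelled knockout, against 5.20, 5.10 and 5.69 FPKM in control libraries, from 1, 1 and 2 reads in libraries labelled knockout and 47, 41 and 45 reads in control libraries. The fitted log2 change was -2.47 ± 0.15 SE (limma adjusted p = 4.65e-05), and -4.54 with a pseudocount of 0.1. The ratio of reads at equal depth, libraries labelled knockout over control, was 0.0261 with an exact 95% Clopper-Pearson interval of 0.00701 to 0.0684, which covers counting error only. The gene entered the test only through its control values, so it had to differ.

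Gm28438 (ENSMUSG00000101939, chromosome 1, 24612775 to 24613119), the copy whose opening bases are printed above, was read at 11.6, 12.1 and 11.8 FPKM in libraries labelled knockout, against 0.34, 0.50 and 2.04 FPKM in control libraries. Its rise (log2 change 2.82 ± 0.27 SE, adjusted p = 0.000921 in limma) rested on 105 to 124 reads per library labelled knockout, against 3 to 16 reads per control library. Of the controls, library 3 alone reached 1 FPKM, so the row entered the test through its values in the libraries labelled knockout. Its p-value is therefore no separate support for a difference. The value belongs to a row of the table and does not show a transcribed pseudogene, because its 345 bases differ from mt-Nd3 at 1 base. Of the reads on both rows, mt-Nd3 held 0.774%, 0.906% and 1.84% in the libraries labelled knockout, against 93.9%, 91.1% and 73.8% in control libraries. The libraries of each group thus held most reads of this region on different chromosomes.

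Counted together, both rows held 125, 110.0 and 107 reads in the libraries labelled knockout, against 49.95, 45 and 61.01 reads in control libraries, which for each 1000000 reads of depth is 4.04, 4.23 and 4.15 against 1.93, 1.95 and 2.68. In a fit added after seeing the data, in which each member and its chromosome 1 copy were summed per length of the member, the sum for mt-Nd3 was called higher in libraries labelled knockout (log2 change 0.84 ± 0.12 SE, adjusted p = 0.0125 in limma). The direction of mt-Nd3 therefore depends on whether the reads of its copy are counted with it. Gene-level values do not hold the base read at this position, so it is not known whether the groups differed there.

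**Figure D4:**
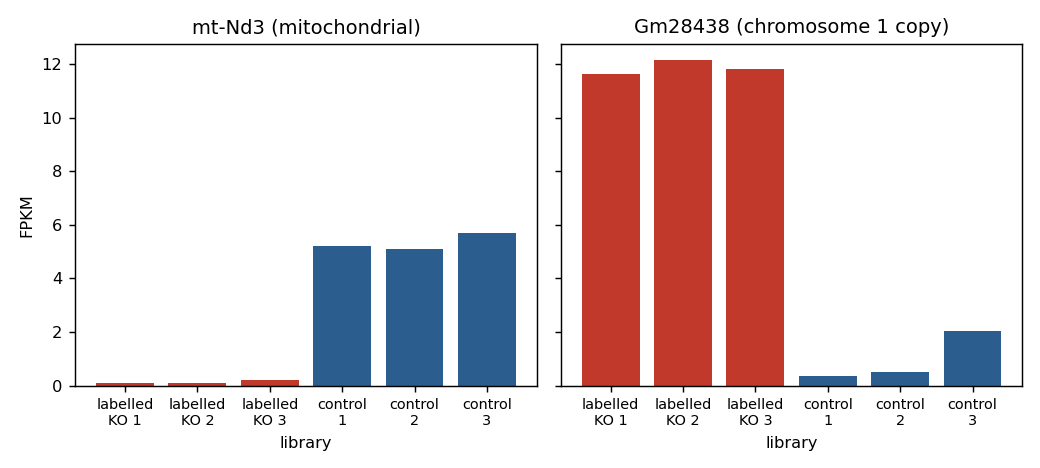
FPKM per library of mt-Nd3 and of its near-identical chromosome 1 copy Gm28438, on a shared axis from 0. Bars are single libraries: mt-Nd3 stands at 0.22 FPKM or less in the libraries labelled knockout and above 5 FPKM in control libraries, and Gm28438 above 11 FPKM in libraries labelled knockout and at 2.04 FPKM or less in control libraries.

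None of the other tested copies was called. Gm28437, identical to mt-Co3 over 783 bases, was read at 11.2, 11.1 and 11.4 FPKM in libraries labelled knockout, against 11.02, 10.1 and 12.6 FPKM in control libraries (log2 change 0.01 ± 0.10 SE, adjusted p = 0.984 in limma). Gm29216, the copy of the end of mt-Co1, averaged 6.46 ± 0.726 FPKM in knockout-labelled and 7.20 ± 0.902 FPKM in control libraries. Gm28661 and Gm10925, copies of mt-Co2 and mt-Atp6, averaged 2.59 ± 0.216 and 2.45 ± 0.392 FPKM in libraries labelled knockout, against 2.14 ± 0.211 and 2.27 ± 0.492 FPKM in control libraries. These 3 were not called (limma adjusted p = 0.629, 0.533 and 0.864). Of 11 nuclear rows with at least 95% identity to a mitochondrial gene over at least 50 bases, 7 lie on chromosome 1, 3 on chromosome 2 and 1 on chromosome 13. On chromosome 2, Gm13341, 95.9% identical to mt-Co2, averaged 4.13 ± 0.504 FPKM in knockout-labelled and 4.01 ± 0.635 FPKM in control libraries (limma adjusted p = 0.932), which is above mt-Co2 itself in each library.

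Complex III, which passes electrons to cytochrome c, has a single mitochondrial gene, mt-Cytb (ENSMUSG00000064370, chromosome M, 14145 to 15288), which encodes cytochrome b. It was read at 697.6, 1052 and 1058.5 FPKM in libraries labelled knockout, against 915, 782 and 1008 FPKM in control libraries. The library labelled knockout 1 was the lowest of all 6, and the groups overlapped (log2 change 0.04 ± 0.16 SE, adjusted p = 0.949 in limma). The sign turned when any of 3 libraries was left out, those labelled knockout 2 and 3 and control library 2.

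Complex IV, cytochrome c oxidase, reduces oxygen. Its catalytic subunit gene mt-Co1 (ENSMUSG00000064351, chromosome M, 5328 to 6872) was read at 1708, 1817 and 1770.2 FPKM in libraries labelled knockout, against 1539, 1601 and 1738 FPKM in control libraries. The groups overlapped by a single library, control 3, and the gene was not called (log2 change 0.12 ± 0.09 SE, adjusted p = 0.556 in limma). Under TPM it was called higher (log2 change 0.32, adjusted p = 0.0104). mt-Co2, the copper subunit gene that takes electrons from cytochrome c, and mt-Co3, a structural subunit gene, lie inside the copied stretch. mt-Co2 averaged 1.13 ± 0.11 FPKM in libraries labelled knockout and 1.37 ± 0.227 FPKM in control libraries, and mt-Co3 averaged 4.70 ± 0.422 FPKM in knockout-labelled and 4.87 ± 0.801 FPKM in control libraries, without passing the test (limma adjusted p = 0.705 and 0.929).

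Complex V, the ATP synthase, has mt-Atp6 and mt-Atp8, which overlap each other and lie inside the copied stretch. mt-Atp6, the subunit gene of the proton channel, was read at 0.76, 1.52 and 1.65 FPKM in libraries labelled knockout, against 1.36, 1.53 and 1.29 FPKM in control libraries, from 16 to 29 reads a library (limma adjusted p = 0.900). mt-Atp8 had 3 reads over all 6 libraries. No difference of mt-Atp8 was detectable at this number of reads.

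Among the 9 ribosomal and messenger RNA genes not wholly inside the copied stretch, the same libraries were low or high in most. The library labelled knockout 1 was the lowest of its group in 8 of 9, all but mt-Rnr1, and it was also the deepest library, at 30890000 reads. Control library 2 was the lowest of its group in 7 of 9, all but mt-Rnr1 and mt-Co1, and control library 3 the highest in 9 of 9. Control library 3 was the shallowest, at 22730000 reads, and control library 2 the next, at 23110000 reads. The part of depth in these values was not tested.

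Transfer RNAs of mitochondria are short and carry no lasting poly(A) tail. Of the 22 genes, 9 had no read in any library, 5 of them inside the copied stretch, and 5 entered the test. Of the 8 annotated on the minus strand 4 were tested, and of the 14 on the plus strand 1. Without strand marks, reads of these genes and of precursor RNA from the other strand cannot be told apart. The 5 tested genes are shown with the anticodon in capitals, in DNA letters. They cover chrM:15356-15422, chrM:3772-3842, chrM:5192-5257 and chrM:5089-5159 (minus strand) and chrM:3845-3913 (plus strand).
mt-Tp: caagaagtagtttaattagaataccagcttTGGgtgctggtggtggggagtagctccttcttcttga
mt-Tq: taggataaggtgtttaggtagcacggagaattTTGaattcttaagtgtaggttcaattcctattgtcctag
mt-Tc: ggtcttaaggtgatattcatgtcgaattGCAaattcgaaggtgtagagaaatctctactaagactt
mt-Tn: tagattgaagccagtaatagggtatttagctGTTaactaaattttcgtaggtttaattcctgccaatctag
mt-Tm: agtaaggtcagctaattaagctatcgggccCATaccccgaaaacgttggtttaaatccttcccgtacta

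mt-Tp, the proline transfer RNA gene at the end of the gene map beside the control region, stood highest of the class. It was read at 86.9, 65.95 and 66.05 FPKM in libraries labelled knockout, against 80.5, 65.3 and 80.8 FPKM in control libraries, from 101 to 180 reads a library. The groups overlapped (log2 change -0.05 ± 0.12 SE, adjusted p = 0.876 in limma). mt-Tq, of glutamine, was read at 19.6, 16.2 and 20.8 FPKM in libraries labelled knockout, against 15.7, 18.3 and 24.8 FPKM in control libraries (adjusted p = 0.943 by limma).

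mt-Tc, of cysteine, was read at 3.43, 2.33 and 3.53 FPKM in libraries labelled knockout, against 2.34, 1.97 and 16.01 FPKM in control libraries, so a single control library with 24 reads stood apart (limma adjusted p = 0.744). mt-Tm, of methionine, was read at 2.34, 2.23 and 1.69 FPKM in libraries labelled knockout, against 5.58, 0.63 and 6.38 FPKM in control libraries (limma adjusted p = 0.667), and it was called lower without control library 2 (log2 change -1.18, adjusted p = 0.0163), a value that rests on 3 to 10 reads a library. mt-Tn, of asparagine, was read at 0.46, 1.08 and 1.64 FPKM in libraries labelled knockout, against 0, 0 and 2.48 FPKM in control libraries, from at most 4 reads.

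The 17 untested transfer RNA genes held 23 reads in all. The highest by mean were mt-Te, mt-Ti, mt-Ts2 and mt-Tl1, for glutamate, isoleucine, a serine and a leucine codon group, at 0.525, 0.453, 0.217 and 0.215 FPKM. No single value of an untested transfer RNA passed 2.25 FPKM, which is 4 reads. At these depths no difference in them was detectable.

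Nuclear genes that copy, read, process and translate the mitochondrial genome were described from 14 lists with 291 genes. Of the 282 tested, 0 rose and 1 fell, the row of Lars2, whose level and limit are given above, while 1.56% of all tested genes were called. Before adjustment, 42 of the 282 had p below 0.05, and 204 had fitted changes above 0, with a median log2 change of 0.08 beside 0.01 for all tested genes. Over all tested genes 53.4% were fitted above 0, and 16.4% had p below 0.05 before adjustment. Under TPM 102 of the 291 list genes were called higher, against 2016 of all 15277 genes then tested.

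The genes of mitochondrial transcription gave 8 of 9 fitted changes above 0, beside 53.4% of all tested genes, and no call. Polrmt, the mitochondrial RNA polymerase, stood at 11.4 ± 1.01 FPKM in libraries labelled knockout and 9.08 ± 0.815 FPKM in control libraries (limma adjusted p = 0.187), and Tefm, its elongation factor, at 29.02 ± 0.653 FPKM in knockout-labelled and 26.2 ± 2.49 FPKM in control libraries. Of 18 tested genes of mitochondrial DNA replication and upkeep 0 were called, Twnk, the replicative helicase, standing at 27.9 ± 0.896 FPKM in knockout-labelled and 23.4 ± 0.875 FPKM in control libraries (limma adjusted p = 0.137). Of 21 genes of RNA processing and stability 0 were called. Tbrg4 stood at 6.69 ± 0.191 FPKM in knockout-labelled and 8.52 ± 0.530 FPKM in control libraries, and Ptcd2 at 57.2 ± 2.24 FPKM in knockout-labelled and 48.8 ± 3.29 FPKM in control libraries (limma adjusted p = 0.152 and 0.171). Of 24 genes of ribosomal and transfer RNA modification 0 were called, with Pus1, a pseudouridine synthase, at 21.9 ± 0.959 FPKM in knockout-labelled and 16.4 ± 2.13 FPKM in control libraries and Nsun2, a cytosine methyltransferase, at 76.05 ± 2.01 FPKM in knockout-labelled and 64.5 ± 0.838 FPKM in control libraries (limma adjusted p = 0.0943 and 0.107).

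Proteins of the mitochondrial ribosome, which bind mt-Rnr2 and mt-Rnr1, gave no call. Of 51 tested genes of the large subunit 44 and of 30 of the small subunit 24 had fitted changes above 0, beside 53.4% of all tested genes, with median log2 changes of 0.09 and 0.11, and 0 passed the test in either list. Mrpl38 stood at 32.9 ± 0.895 FPKM in libraries labelled knockout and 27.2 ± 1.06 FPKM in control libraries, and Mrps6 at 41.5 ± 2.40 FPKM in knockout-labelled and 32.6 ± 3.51 FPKM in control libraries (limma adjusted p = 0.105 each). Of 14 translation factors 0 were called, with Tufm, the elongation factor that brings transfer RNAs to the ribosome, at 52.6 ± 1.97 FPKM in knockout-labelled and 44.1 ± 0.481 FPKM in control libraries (limma adjusted p = 0.105).

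The nuclear partners of the mitochondrial subunits gave no call. Their median log2 changes were 0.01 for the 37 nuclear subunit genes of complex I, 0.06 for 9 of complex III, -0.03 for 11 of complex IV, 0.00 for 16 of complex V and 0.07 for the 4 of complex II. In these 5 lists 0 genes were called and 0 had an unadjusted p below 0.05. Ndufa9, an accessory subunit of complex I, stood at 75.1 ± 3.37 FPKM in knockout-labelled and 68.5 ± 4.17 FPKM in control libraries, and Cox5a, of complex IV, at 20.9 ± 1.12 FPKM in knockout-labelled and 24.3 ± 3.98 FPKM in control libraries. Of 17 regulators of mitochondrial mass and turnover 0 were called, Pink1, a kinase that marks damaged mitochondria, standing at 76.9 ± 7.10 FPKM in knockout-labelled and 63.7 ± 4.80 FPKM in control libraries (limma adjusted p = 0.172).

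Markers of other bone marrow cells were read beside the mitochondrial genes. Of all tested genes 53.4% were fitted above 0 and 1.56% were called. In 10.1% of them the libraries labelled knockout all lay below the control libraries. The 6 megakaryocyte and platelet markers all had fitted changes below 0, with 0 called and a summed level of 278.5 to 389.9 FPKM in libraries labelled knockout, against 400.9 to 508.9 FPKM in control libraries. This sum was mostly Pf4, at 159 to 245 FPKM in knockout-labelled and 270 to 354 FPKM in control libraries. Each other marker of this list overlapped between the groups. Summed erythroid markers lay at 36.1 to 40.4 FPKM in libraries labelled knockout and 44.9 to 50.5 FPKM in control libraries, with 3 of 5 tested below 0 and Hbb-bt, an adult beta-globin gene, called lower. Hbb-bt stood at 4.06 ± 0.462 FPKM in knockout-labelled and 14.8 ± 4.50 FPKM in control libraries, and each other erythroid marker overlapped between the groups. The summed T and NK cell list lay at 50 to 61.75 FPKM in knockout-labelled and 72.9 to 99.2 FPKM in control libraries through Nkg7, a cytotoxic granule gene and the single tested one, which fell (log2 change -0.68, limma adjusted p = 0.0332), while Cd3e, Cd3d and Cd3g did not pass 0.17 FPKM in any library. The summed B cell list lay at 23.5 to 25.8 FPKM in knockout-labelled and 27.5 to 30.1 FPKM in control libraries through Cd79b. Summed granulocyte markers lay at 2.86 to 4.29 FPKM in knockout-labelled and 3.77 to 3.91 FPKM in control libraries with Ly6g at 0 throughout. Monocyte and macrophage markers, mostly Lyz2, lay at 341 to 371.5 FPKM in knockout-labelled and 362 to 404 FPKM in control libraries. Of the 4 tested, 1 was fitted above 0 and 3 below, with 0 called. Cd68, with the smallest p of them, did not overlap between the groups. It stood at 7.40 ± 1.49 FPKM in knockout-labelled and 11.7 ± 1.66 FPKM in control libraries (limma adjusted p = 0.0857). Stromal and endothelial markers lay at 9.26 to 11.3 FPKM in knockout-labelled and 10.5 to 12.2 FPKM in control libraries. The part of all these markers in the mitochondrial values was not tested.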

How the data were processed

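The deposited table holds FPKM made by the authors for 52183 genes in 6 libraries. Sorted cells went into TRIzol-LS, and 2 ng of total RNA into the SMART-Seq v4 kit, per the labels' protocols. The kit primes cDNA from poly(A) and does not mark strand. GRCm38, mm10, STAR, edgeR and FastQC 0.11.5 are named in the submitters' processing notes. The annotation is not given in the sources used here, nor is the treatment of reads with several matches. Every identifier matched GENCODE M21, which gave positions and exon lengths.

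Depth was the number of reads that made most FPKM values of genes up to 400 bases whole within 0.1 read (99.4% to 99.7%). Read numbers follow from it, and intervals and floors (3 reads) cover counting error only. Genes that reached 1 FPKM in 3 or more libraries entered limma 3.58.1 (R 4.3.3) as log2(FPKM + 1) (group as the single term, trended eBayes, two-sided, Benjamini-Hochberg, threshold 0.05), checked on simulated data. The pseudocount of 1 understates changes of low genes. Transcripts were compared with BLAST 2.17.0. Replicates were no copies of each other (chi-square per degree of freedom 7.55 to 13.8).

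Every member is accounted for, tested members with each value. Of a nuclear list, called genes or up to 2 with the smallest p are named. Members and lists were chosen with earlier results of these data known. Alternatives were TPM, a mean of 5 FPKM or more, no filter, a pseudocount of 0.1, median of ratios, eBayes without trend, the replicate number as a block, each library left out and, added after seeing the data, members summed with their chromosome 1 copies.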

Additional observations from a re-analysis of the deposited data

How the results depend on the processing

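Over 13 alternatives, mt-Rnr2 stayed below 0 (log2 change -0.81 to -0.55) and passed the threshold in 9 (adjusted p 0.00315 to 0.25). It also lost the call with the replicate number as a block (adjusted p = 0.0859). mt-Nd3 was past the threshold in the 9 that tested it, which says nothing of stability, since it enters only through its control values, and a mean of at least 5 FPKM or leaving out any control library removed it from the test. Summed with its copy it reversed to 0.84. Gm28438 lost its call with no filter (adjusted p = 0.0565). Members called lower numbered 1 with no filter, 1 at a mean of at least 5 FPKM, 1 with the block, 1 after summing with copies and 1 to 2 with a library left out. Members called higher numbered 1 under TPM, mt-Co1, and 1 after summing, mt-Nd3.

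The summed messengers' log2 ratio, 0.01, was 0.22 under TPM, and that of ribosomal RNA, -0.72, was -0.51. Of the 291 nuclear list genes, 102 were called higher under TPM. Over all genes, 71 were called higher and 125 lower. Higher calls numbered 8 with no filter, 112 at a mean of at least 5 FPKM, 2016 under TPM, 24 without trend, 27 with the block and 16 to 38 with a library left out. Lower calls numbered 16 with no filter, 65 without trend, 54 with the block and 43 to 77 with a library left out. Higher genes made up 36.2% of calls with FPKM and 94.0% with TPM, where 15277 genes were tested. Same-numbered libraries did not deviate together (correlations -0.110, 0.037 and -0.079). The labels do not say how the numbers were given, and these correlations cannot exclude a pairing. With a library left out, the log2 change of Thbs1 ranged between 0.187 and 1.26, the highest without control library 2. Gm23935, which is part of the FPKM sums that TPM divides by, averaged 14230 FPKM in knockout-labelled and 64180 FPKM in control libraries. Its part in the TPM shifts was not tested, nor was the cause of the other shifts. Read number limits the 17 untested transfer RNAs, mt-Atp8 and mt-Nd4l.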
